A study of Bos taurus with 129 samples.

Results

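The cytosolic ribosomal protein genes were taken as the entries whose symbol reads RPL or RPS followed by a number, with an optional A, X or L and a further number, together with RPLP0, RPLP1, RPLP2 and RPSA. Of 32395 genes listed, 82 matched, and 80 of them had a mean CPM (counts scaled to a common library size) of at least 1 over all libraries. The members comprised 48 proteins of the large subunit and 32 of the small subunit. The gene just inside the limit was RPS27L with a mean of 17.7 CPM, and the pair outside it was RPL3L at 0.207 CPM and RPL10L at 0.0702 CPM. All 80 members were annotated as protein coding in the RefSeq tables and passed the filter on low counts, which kept 18937 genes.

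Ribosomal proteins pack around the ribosomal RNAs to form the small subunit, which decodes the message, and the large subunit, which forms the peptide bond. Each ribosome holds about one copy of most of them, apart from the acidic proteins of the stalk, and their messages share a pyrimidine tract at the start that lets cells translate them together in response to nutrient signals. In blood these messages are abundant in lymphocytes, scarce in mature neutrophils and retained in young erythrocytes and platelets, so their level in whole blood also follows the mix of cells.

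Blood was drawn from 26 commercial crossbred beef steers at enrolment into pens (day 0), which followed long transport, and again on days 13, 28, 45 and 60, and RNA from whole blood was sequenced as stranded mRNA libraries. Of the animals, 12 had never been diagnosed with bovine respiratory disease (BRD) and are called healthy, whereas 14 carried the BRD label at some time in the study. The healthy animals comprised 4 fed copper, cobalt, manganese and zinc as sulfates (INR), 4 fed the same metals as amino acid complexes (AAC) and 4 fed the complexes plus a mineral drench, given ahead of shipment and at enrolment (COMBO). The BRD animals comprised 7 INR, 4 AAC and 3 COMBO steers. Every animal received a respiratory virus vaccine on day 0 and day 21 and doramectin on day 0, and COMBO animals also received the drench when treated for illness. No animal was left unsupplemented, whole pens were assigned to a supplement, and the labels give neither age nor the day of diagnosis. The COMBO animals came from 1 pen with healthy animals only and 1 pen with BRD animals only, so within COMBO the disease label and the pen cannot be told apart. The earlier health history of the animals was unknown. The day 13 library of healthy AAC animal 48 was not analysed here, because it failed in sequencing.

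Library totals ran from 31613545 to 61692136 counts with a median of 44268685. The neutrophil marker CSF3R and the platelet marker GP1BB were not analysed here. The other markers were detected in every library for neutrophils, monocytes, T cells, B cells, NK cells and platelets, and among the erythroid markers SLC4A1 was at 0 in 12 libraries. No 2 libraries held the same values, and libraries of the same animal on different days were correlated after the group means were removed, with a median r of 0.37 over 256 pairs against -0.01 over 6400 pairs of different animals.

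The 80 members together took 4.88% ± 0.99 (SD over all libraries) of the counts of a library. The lowest share was 2.59% in healthy INR animal 50 on day 13 and the highest was 9.12% in BRD INR animal 40 on day 60. The members varied together from library to library. After the mean of each combination of label, supplement and day was removed, the median member correlated at r = 0.96 with the mean of the other 79 over all libraries, and 67 members had an r of at least 0.9. These values are a description only, since all members of a library share its cells, depth and scaling. The median SD of a member around its combination mean was 0.28 on the log2 scale, against 0.35 for the median gene tested. RPL7L1 had the smallest SD, 0.15, followed by RPL22L1 at 0.21 and RPS15 at 0.22. RPS14 at 0.68, RPS3 at 0.75 and RPL3 at 1.06 had the largest.

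Member levels spanned a wide range within blood, although CPM is not corrected for transcript length and the genes are therefore not ranked against each other here. RPS2, a small subunit protein near the channel through which the message enters, ran from 1143 to 3892 CPM with a median of 2022 over all libraries. RPLP0, the anchor of the stalk, ran on day 0 from 1134 to 1903 CPM with a median of 1541. At the other end, the RPS27 paralog RPS27L ran from 10.98 to 33.02 CPM, the RPL26 paralog RPL26L1 from 17.8 to 84.4 CPM, the RPL7-like gene RPL7L1 from 53.1 to 112.1 CPM and the RPL22 paralog RPL22L1 from 45.2 to 114.8 CPM. None of the 4 paralogs was near 0 in any library.

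The first comparison asked how the members moved within animals over the 60 days. The module mean, the mean log2 CPM of the 80 members, was 8.95 ± 0.18 on day 0 (SD, n = 26), 8.77 ± 0.34 on day 13 (n = 25), 8.87 ± 0.32 on day 28, 8.93 ± 0.22 on day 45 and 8.89 ± 0.35 on day 60 (n = 26 each). It was lower on day 13 than on day 0 in 18 of 25 animals, with a mean change of -0.19 ± 0.41 on the log2 scale. The groups overlapped on every day, and the day 13 values ran from 7.89 to 9.41 against 8.60 to 9.32 on day 0. On day 28 the change was -0.08 ± 0.37, on day 45 it was -0.02 ± 0.26 and on day 60 it was -0.06 ± 0.39. The 4 highest libraries belonged to BRD COMBO animal 54 and BRD INR animal 40 on days 28 and 60, at 9.90 and 9.72 on day 28 and 9.74 and 9.95 on day 60. Animal 54 stood at 8.68 and animal 40 at 9.20 on day 0. The latter animal also had the sample of lowest RNA integrity, that of day 60.

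**Figure D1:**
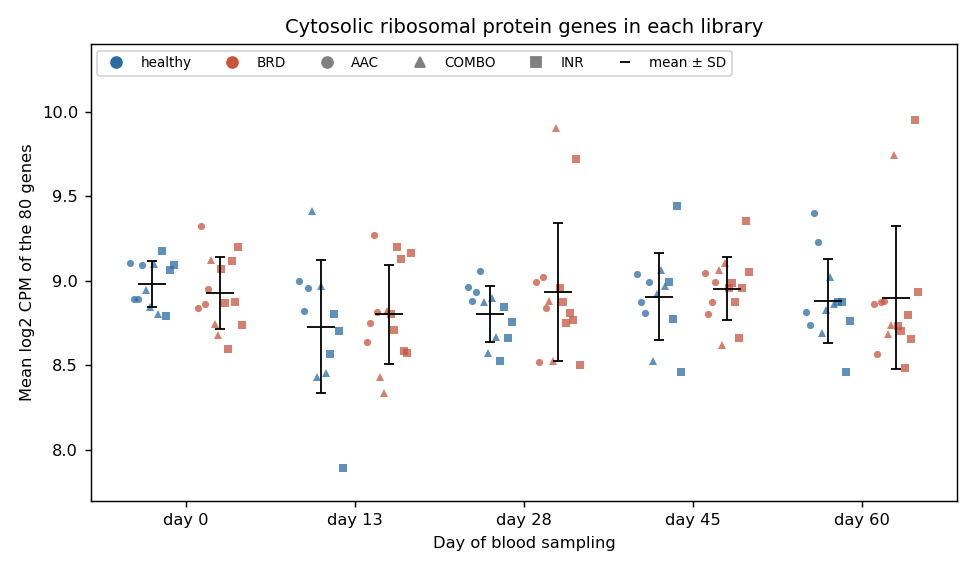
Mean log2 CPM of the 80 cytosolic ribosomal protein genes (vertical axis) in each library by day of sampling, coloured by disease label, with symbols for supplement and black bars for the mean ± SD of each label and day. The lowest library, 7.89, is healthy INR animal 50 on day 13, and the 4 libraries above 9.7 are BRD animals 40 and 54 on days 28 and 60.

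On day 13, 31 of the 80 members fell and none rose (edgeR quasi-likelihood test with animal as a block, Benjamini-Hochberg FDR below 0.10). Of all 18937 genes tested, 15.1% fell and 16.6% rose in the same comparison. The fall comprised 20 of 48 large subunit members and 11 of 32 small subunit members, and 76 of the 80 fitted changes were negative. The median change of the members was -0.16 on the log2 scale, equal to -10.2% on the linear scale, whereas the median over all tested genes was 0.01. The 31 changes that passed the test ran from -0.09 for RPL7L1 to -0.35 for RPLP1.

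RPLP1, an acidic protein of the large subunit stalk that recruits the elongation factors, had the largest fall on day 13. It ran from 976 to 1812 CPM with a median of 1293 on day 0 and from 505 to 1629 CPM with a median of 993 on day 13. The ranges overlapped, but RPLP1 was lower on day 13 in 21 of 25 animals. The fitted change was -0.35 ± 0.08 (log2 ± SE, adjusted p = 0.0013). Its stalk partner RPLP2 fell by 0.25 (SE 0.10, adjusted p = 0.046) and the anchor RPLP0 by 0.23 (SE 0.08, adjusted p = 0.028).

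RPL39, a short protein that lines the tunnel through which the new peptide leaves, ran from 145 to 300.5 CPM with a median of 238 on day 0 and from 82.2 to 317 CPM with a median of 181 on day 13. It was lower in 21 of 25 animals, with a change of -0.33 ± 0.09 (adjusted p = 0.0039). RPL31, a protein at the mouth of the same tunnel, ran from 438 to 804 CPM with a median of 623 on day 0 and from 245 to 862 CPM with a median of 480 on day 13. It was lower in 20 of 25 animals, with a change of -0.32 ± 0.09 (adjusted p = 0.0047). As for RPLP1, the ranges of both genes overlapped between the days.

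Among the paralog pairs, RPS27 and RPS27L both fell on day 13, by 0.32 (SE 0.09, adjusted p = 0.0035) and 0.20 (SE 0.07, adjusted p = 0.018). RPL22L1 fell by 0.14 (SE 0.06, adjusted p = 0.085) and RPL7L1 by 0.09 (SE 0.04, adjusted p = 0.077), and for neither did the parent gene pass the test, RPL22 with a change of -0.12 ± 0.08 and RPL7 with 0.02 ± 0.07. The difference between paralog and parent was not tested. RPL26 and RPL26L1 did not pass, with changes of -0.08 ± 0.08 and 0.06 ± 0.12, nor did RPL10 at -0.12 ± 0.07. RPSA, also known as the laminin receptor, had a value of -0.11 ± 0.08 and RPS27A, made as a fusion with ubiquitin, one of -0.14 ± 0.08, and neither passed the test.

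**Figure D2:**
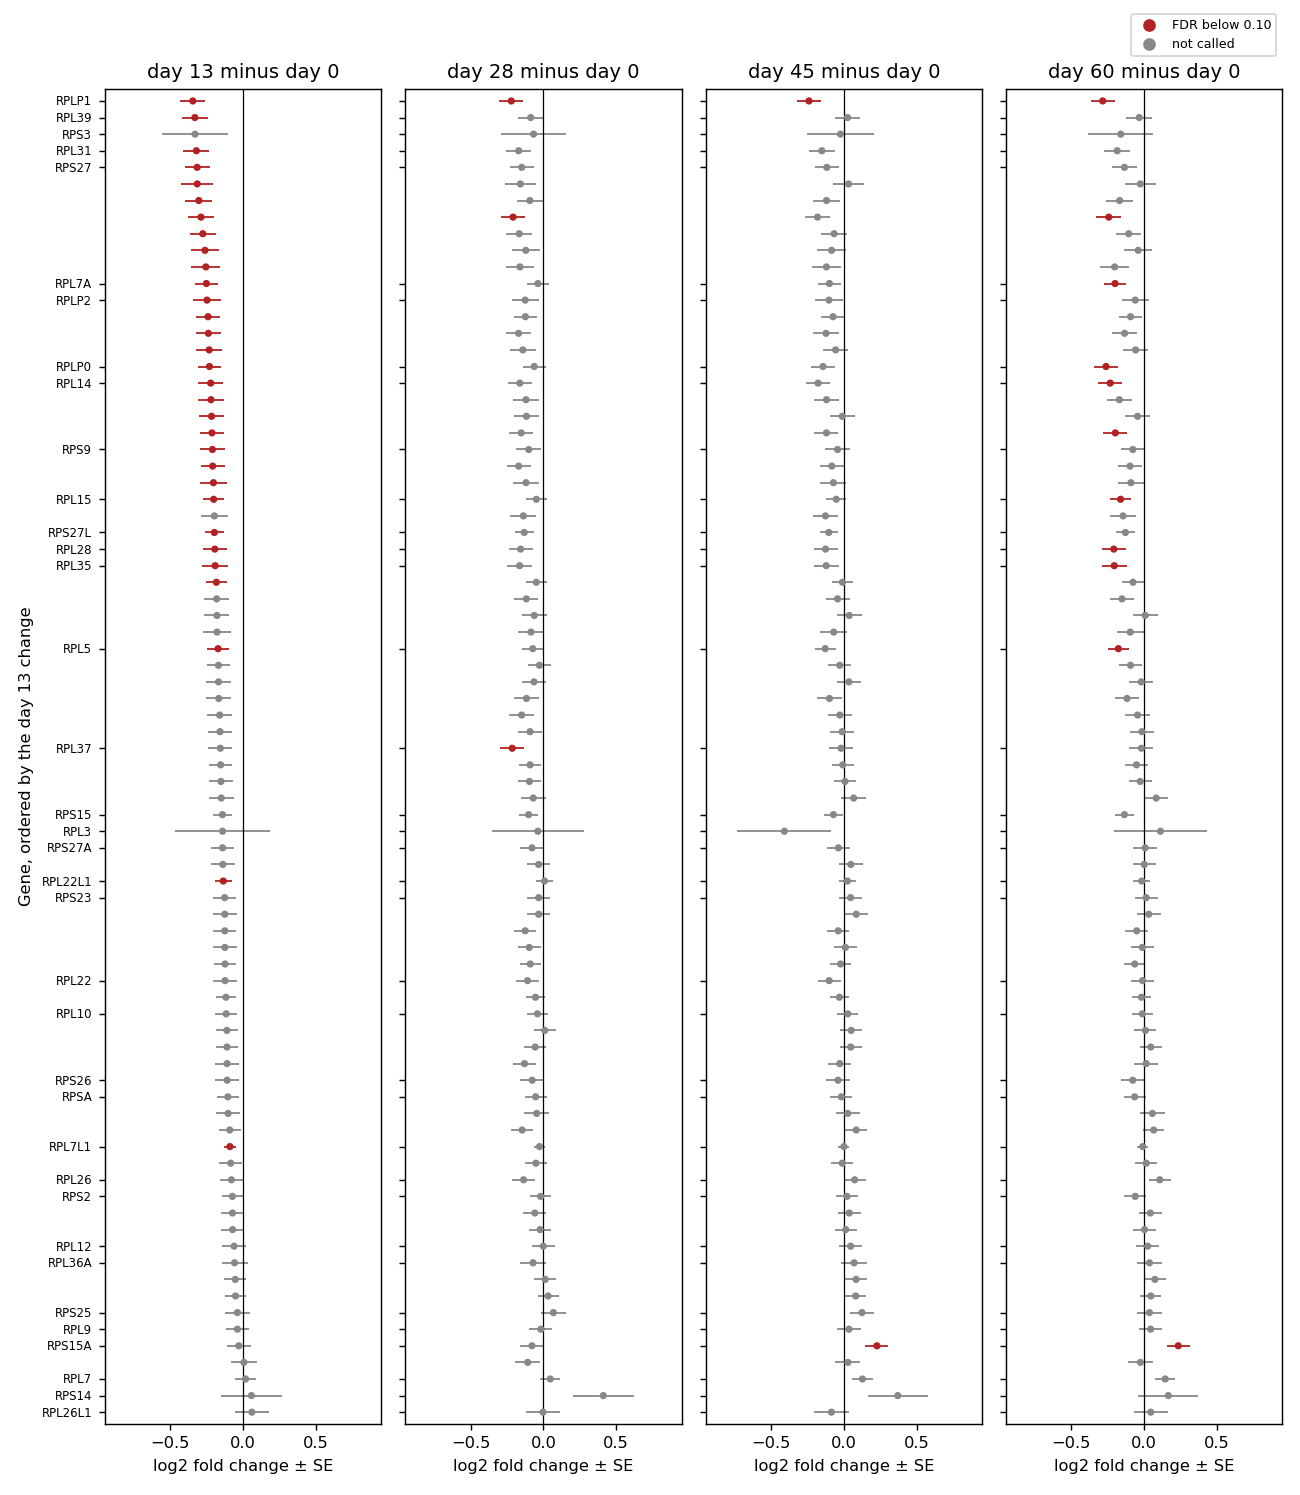
Fitted log2 change from day 0 (horizontal axis, point ± SE) of each of the 80 members on days 13, 28, 45 and 60, with genes in the order of their day 13 change, labels for genes described in the text and red for an FDR below 0.10. On day 13 all 31 red points lie below 0, RPLP1 is red on every day, and the bars of RPL3, RPS3 and RPS14 are wider than those of the other members.

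On day 28 only 3 members fell and none rose, while 16.6% of all genes fell and 17.6% rose. They included RPLP1 with -0.22 ± 0.08 (adjusted p = 0.037) and RPL37, a zinc-binding large subunit protein, with -0.21 ± 0.08 (adjusted p = 0.041). RPL37 ran from 469 to 756 CPM with a median of 580 on day 0 and from 349 to 1056 CPM with a median of 492 on day 28, and it was lower in 23 of 26 animals. The day 28 range of RPL37 enclosed its whole day 0 range. The median change of the members was -0.09.

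On day 45, 1 member fell and 1 rose, against 14.2% and 14.9% of all genes. RPLP1 fell by 0.24 (SE 0.08, adjusted p = 0.026). RPS15A, a small subunit protein, rose by 0.23 (SE 0.08, adjusted p = 0.028), from a range of 203 to 365 CPM with a median of 248 on day 0 to a range of 204 to 416 CPM with a median of 304 on day 45. It was higher on day 45 in 22 of 26 animals. The median change of the members was -0.03.

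On day 60, 10 members fell and 1 rose, against 14.9% and 15.6% of all genes. RPS15A was again the member that rose, by 0.23 (SE 0.08, adjusted p = 0.022), and it was higher in 19 of 26 animals with a median of 282 CPM. RPLP1 fell by 0.29 (SE 0.08, adjusted p = 0.0070) and RPLP0 by 0.26 (SE 0.08, adjusted p = 0.010), each in 22 of 26 animals. RPL14, RPL28, RPL35, RPL7A, RPL5 and RPL15 also fell, by 0.23 to 0.16. The median change of the members was -0.04. The 4 comparisons share the day 0 libraries, so their counts are not independent of each other.

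The counts on days 28 and 60 rested on few libraries. The 4 libraries of animals 40 and 54 on days 28 and 60, which hold the highest shares of counts in the members, were left out in an alternative chosen after the data were seen. Without them 45 members fell on day 28 in place of 3, and on day 60, 31 fell and 1 rose in place of 10 and 1 (edgeR, FDR below 0.10), while 19.6% and 18.6% of the genes tested fell. The median change of the members then was -0.16 on day 28 and -0.13 on day 60. Without only the day 60 library of animal 40, 17 members fell and 1 rose on day 60. The lowest library, that of healthy INR animal 50 on day 13, had an erythroid marker sum of 3324 CPM against 172 CPM in the same animal on day 0. The sum of 3324 CPM lay within the range of the other day 13 libraries. Without this library 20 members fell on day 13 and none rose, with 13.0% of all genes lower and a median member change of -0.13. Among 8 animals left out in turn, 20 members were called on day 13 without healthy COMBO animal 6 and 17 without BRD COMBO animal 18, and 7 were called on day 60 without animal 18. The share of all genes called is not printed for these fits, nor for that without only the day 60 library of animal 40. The day 28 and day 60 libraries of animal 40 had erythroid sums of 1339 and 1262 CPM, and those of animal 54 had 348 and 554 CPM, within the range of the other libraries of those days.

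Some components of the ribosome or its surface fall outside the symbol rule. FAU, a ubiquitin-like fusion with a small subunit protein, fell by 0.41 on day 13 (SE 0.10, adjusted p = 0.0011) and by 0.34 on day 60 (SE 0.10, adjusted p = 0.0060). RPL36AL, a paralog of RPL36A, fell by 0.20 on day 13 (SE 0.07, adjusted p = 0.037) and by 0.18 on day 60 (SE 0.07, adjusted p = 0.052). The scaffold RACK1 had -0.12 ± 0.06 on day 13 (adjusted p = 0.19) and passed on no day.

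Among 24 further translation and TOP-message genes tested, 6 fell and none rose on day 13, beside 15.1% and 16.6% of all genes. The median change of the list was -0.09. All 6 that fell were subunits of the initiation factor eIF3, which joins the small subunit to the message. EIF3F with -0.18 ± 0.06 (edgeR, adjusted p = 0.021) and EIF3M with -0.17 ± 0.06 (edgeR, adjusted p = 0.021) had the largest falls. The list names the eIF3 subunits EIF3A to EIF3M by design. EIF3C was not tested, and the other eIF3 subunits did not pass. On day 28, 4 of the 24 fell, beside 16.6% of all genes. On day 45, 3 rose and 1 fell, beside 14.9% and 14.2% of all genes. On day 60, 1 rose, beside 15.6% of all genes. Of 23 ribosome biogenesis genes, 3 fell and 2 rose on day 13, when 15.1% of all genes fell and 16.6% rose. On day 60, 6 fell and 3 rose, against 14.9% and 15.6%. The median change of the list was -0.02, 0.04, 0.01 and -0.03 on days 13, 28, 45 and 60. Here MYC, the transcription factor that drives ribosome production in growing cells, fell on all 4 days, by 0.21, 0.22, 0.13 and 0.22, and RRP12, which helps export the subunits from the nucleus, fell by 0.16, 0.11, 0.14 and 0.18. NOP14, a nucleolar protein needed to make the small subunit, rose by 0.08 on day 13, 0.10 on day 28 and 0.08 on day 60. Of 78 mitochondrial ribosomal proteins, 20 fell and none rose on day 13, with a median of -0.09, beside the 15.1% and 16.6% of all genes. On day 60, 9 fell and 3 rose, beside 14.9% and 15.6% of all genes.

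The markers of blood cell types moved over the same days. On day 13 all 6 erythroid markers rose, with a median change of 1.97, and their summed level went from a median of 110 CPM (range 16.5 to 1992) on day 0 to 1790 CPM (range 97.6 to 24055). Of 7 neutrophil markers, 5 fell, with a median change of -0.73, and the summed level went from a median of 1817 CPM (range 1085 to 8577) to 1357 CPM (range 787 to 2329). Of 5 platelet markers, 4 rose, with a summed median of 753 CPM (range 375 to 2138) on day 0 and 1182 CPM (range 520 to 2391) on day 13. Of 9 T cell markers, 1 rose and 1 fell (summed median 1967 CPM, range 1139 to 3074, then 1804 CPM, range 1234 to 2760), and of 7 B cell markers, 2 rose (2014 CPM, range 756 to 3560, then 2125 CPM, range 1004 to 3009). Of 5 monocyte markers, 2 fell (666 CPM, range 370 to 1668, then 475 CPM, range 312 to 720), and of 5 NK and cytotoxic markers, 2 fell and 1 rose (197 CPM, range 117.2 to 427, then 187 CPM, range 96.3 to 280). The part of these shifts in the fall of the ribosomal protein genes was not tested. In whole blood, fewer cells of a type and less RNA per cell cannot be told apart.

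The second comparison asked whether the members differed between BRD and healthy animals on each day. No member passed the test on any of the 5 days (edgeR quasi-likelihood test over 30 combination means, FDR below 0.10), while the calls over all genes were 3 on day 0 (0.0158%), 0 on day 13 (0%), 1 on day 28 (0.00528%), 0 on day 45 (0%) and 1 on day 60 (0.00528%). At an unadjusted p below 0.05 (edgeR), 0, 0, 4, 3 and 1 of the 80 members were counted on the successive days. Of all genes, 7.12%, 3.78%, 8.64%, 4.22% and 3.64% lay below 0.05 on those days. DESeq2 called 0 members on each of the 5 days, with 98, 36, 40, 31 and 30 genes called over all genes. The module mean on day 28 was 8.93 ± 0.41 in BRD animals (n = 14) and 8.80 ± 0.16 in healthy animals (n = 12), with 79 of 80 fitted differences positive and a median of 0.21. The values of BRD animals ran from 8.50 to 9.90 and enclosed those of healthy animals, which ran from 8.53 to 9.06. On the other days the median difference lay between -0.05 and 0.09.

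The largest fitted difference on day 28 was that of RPL3, at 0.72 ± 0.43 (edgeR, unadjusted p = 0.093, adjusted p = 0.61). The members named next had the smallest unadjusted p on that day. RPLP1 stood at 0.28 ± 0.13 higher in BRD animals (edgeR, unadjusted p = 0.032, adjusted p = 0.55) and RPL9, a large subunit protein, at 0.28 ± 0.12 (edgeR, unadjusted p = 0.028, adjusted p = 0.54). The sign of the day 28 and day 60 differences turned without the 4 libraries of BRD animals 40 and 54. The median member difference then was -0.03 on day 28, with 54 of 80 negative, and -0.15 on day 60, with 77 negative, and no member passed on either day, with 1 and 5 members at an unadjusted p below 0.05 (edgeR). The share of all genes below 0.05 without these libraries is not reported here. With pen as a term, the medians were 0.17 on day 28 and 0.15 on day 60. Among AAC animals alone, whose pens each held animals of both labels, they were -0.08 and -0.25, and again no member passed.

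The largest difference on any day belonged to RPL3, a large subunit protein that reaches toward the centre where the peptide bond is formed. On day 45 RPL3 ran from 107.8 to 1228 CPM with a median of 542 in BRD animals and from 36.96 to 1018 CPM with a median of 307 in healthy animals. The ranges overlapped over most of their length, and the fitted difference of 1.15 ± 0.43 did not survive adjustment (edgeR quasi-likelihood test, unadjusted p = 0.0086, adjusted p = 1.0). On the same day RPS14 had a difference of 0.67 ± 0.31 and RPS25 one of 0.31 ± 0.13, both also with an adjusted p of 1.0. The level of RPL3 also ran against that of another entry, as described further on.

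The change from day 0 was also compared between the labels within animals. No member passed on any day, and neither did any other gene in the edgeR fit (0% on days 13, 28, 45 and 60). At an unadjusted p below 0.05 (edgeR) no member was counted on any day, beside 3.40%, 4.98%, 4.14% and 3.81% of all genes on days 13, 28, 45 and 60. DESeq2 called 0 members on each day, with 22, 18, 14 and 8 genes called over all genes and 1 member at an unadjusted p below 0.05 on day 45. The share of all genes below 0.05 was not counted for DESeq2. The module mean changed on day 13 by -0.13 ± 0.40 in 14 BRD animals and by -0.26 ± 0.42 in 11 healthy animals, and on day 28 by 0.01 ± 0.46 and -0.18 ± 0.21. On day 28, 10 of 12 healthy and 8 of 14 BRD animals were lower than on day 0.

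The third comparison asked whether the members differed between the supplements. No member passed on any day (edgeR quasi-likelihood F-test over INR, AAC and COMBO, averaged over labels, FDR below 0.10), while 20 genes passed on day 0 (0.106%), 58 on day 13 (0.306%), 8 on day 28 (0.0422%), 7 on day 45 (0.037%) and 4 on day 60 (0.0211%). At an unadjusted p below 0.05 (edgeR), 1 member was counted, on day 45, and none on the other days. Of all genes, 8.14%, 10.7%, 6.06%, 5.01% and 5.88% lay below 0.05 on the successive days. DESeq2 called 0 members on each day and 0.037%, 0.602%, 0.412%, 0.00528% and 0.0792% of all genes on the successive days, with 1 member at an unadjusted p below 0.05 on day 0 and 2 on day 45. The DESeq2 share of all genes below 0.05 was not counted. The module mean on day 13 was 8.89 ± 0.21 in AAC (n = 7), 8.70 ± 0.39 in COMBO (n = 7) and 8.74 ± 0.37 in INR (n = 11). On day 60 it was 8.92 ± 0.27 in AAC (n = 8), 8.94 ± 0.37 in COMBO (n = 7) and 8.84 ± 0.40 in INR (n = 11). The supplement groups overlapped on every day.

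RPL3 was the member counted on day 45, with AAC 1.40 and COMBO 1.45 above INR on the log2 scale (unadjusted p = 0.0082, adjusted p = 0.72). It ran from 107.8 to 720 CPM with a median of 487 in AAC, from 36.96 to 1018 CPM with a median of 412 in COMBO and from 45.5 to 1228 CPM with a median of 309 in INR. On day 0, the day of enrolment, RPL12 had the smallest p, with COMBO 0.41 below AAC (edgeR, unadjusted p = 0.089, adjusted p = 0.72). RPL12 again had the smallest p on day 13, with COMBO 0.43 below AAC (edgeR, unadjusted p = 0.11, adjusted p = 0.57). RPS25 had the smallest p on day 28, with AAC 0.27 above INR (edgeR, unadjusted p = 0.18, adjusted p = 0.85), and on day 60, with AAC 0.30 above INR (edgeR, unadjusted p = 0.064, adjusted p = 0.87).

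Several members varied in ways that the other members did not share, and some of them ran opposite to another entry. RPL3 ran from 14.25 to 1598 CPM over all libraries, although its fellow members moved by far less. The entry of the microRNA MIR2440, which lies inside the RPL3 gene in the RefSeq annotation of ARS-UCD2.0, ran from 11.7 to 1141 CPM in the opposite direction, with r = -0.95 over all libraries after RPL3 was scaled to the other members. In BRD INR animal 23 on day 13, RPL3 stood at 14.25 CPM and the MIR2440 entry at 749 CPM. In BRD INR animal 40 on day 60, RPL3 stood at 1598 CPM and the MIR2440 entry at 21.7 CPM. The sum of the pair ran only from 489 to 1620 CPM. The SD of RPL3 relative to the median of the other members was 1.25 on the log2 scale, and the SD of the sum was 0.09, below the median of 0.11 over all members.

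RPS3 showed the same pattern with SPCS2, a subunit of the signal peptidase listed on the same chromosome with 9 other genes between. RPS3 ran from 57.2 to 1492 CPM and SPCS2 from 189 to 1910 CPM, with r = -0.88. The SD relative to the other members was 0.78 for RPS3 and 0.06 for the sum. The level varied between days within an animal. In BRD AAC animal 41, RPS3 stood at 92.9, 703, 169, 722 and 112.5 CPM on the successive days, and SPCS2 at 1307, 459, 1066, 612 and 1178 CPM. SPCS2 was high on the 3 days on which RPS3 was low.

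**Figure D3:**
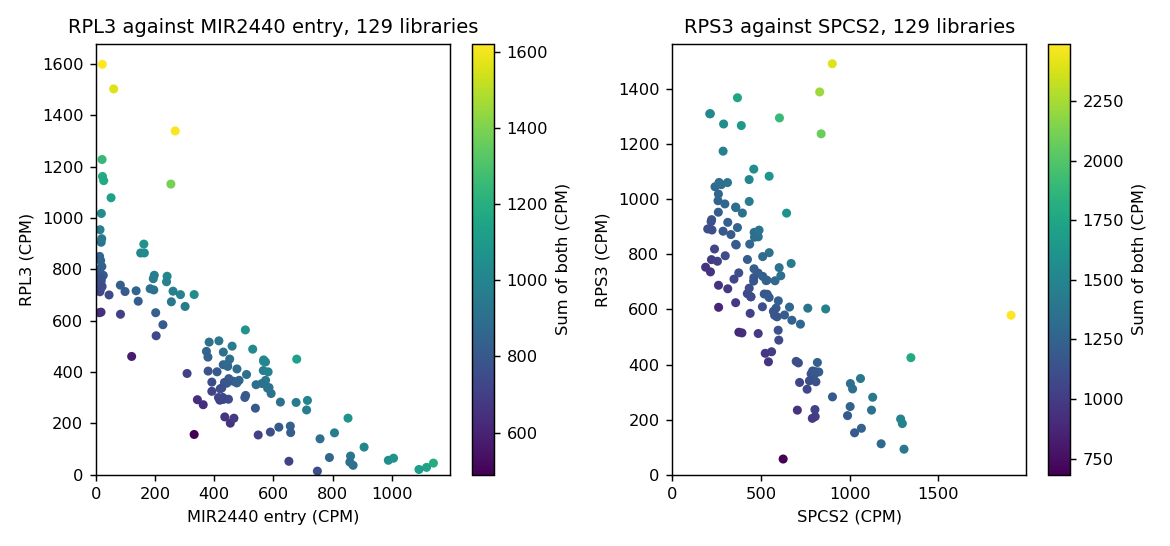
CPM of RPL3 against the MIR2440 entry (left) and of RPS3 against SPCS2 (right), 1 point for each library, coloured by the sum of both entries in CPM. Libraries low in the ribosomal protein gene are high in the other entry, and the sum of RPL3 and the MIR2440 entry stays between 489 and 1620 CPM.

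When the counts of each pair were summed before the fit, an alternative chosen after the data were seen, the day 45 difference in RPL3 between BRD and healthy animals went from 1.15 ± 0.43 to 0.02 ± 0.11 (edgeR, unadjusted p = 0.88, adjusted p = 1.0). The day 45 differences between supplements went from 1.40 to -0.01 for AAC against INR and from 1.45 to -0.08 for COMBO against INR (edgeR, unadjusted p = 0.84, adjusted p = 1.0). The day 13 change of RPS3 went from -0.33 ± 0.23 (adjusted p = 0.30) to -0.16 ± 0.07, which passed the test (adjusted p = 0.093). The counts were estimated from assembled transcripts and assigned to gene names afterwards, as described in the processing. How the assignment varied between libraries was not tested.

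For other members the sum with the most opposed entry kept more of the variation. RPS25 ran against DDX6, an RNA helicase on the same chromosome with 5 genes between (r = -0.89, SD 0.28 for RPS25 and 0.18 for the sum). RPL36A ran against the entry RPL36A-2 (r = -0.81, SD 0.23 and 0.11), and RPL26L1 against its neighbour ERGIC1 (r = -0.69, SD 0.46 and 0.25). For RPS14, which had an SD of 0.72 relative to the other members, the entry most opposed to it was ARHGAP9 with r = -0.31, and the sum still had an SD of 0.66. The partners were found by searching the genes of at least 5 CPM for the most opposed entry, so these coefficients are a description.

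A second kind of variation lay between animals and stayed with each animal over the 60 days. The share of variance between animals in a member's level relative to the other members had a median of 38.2% over the 80, and it exceeded 80% in RPL12 (96.3%), RPS23 (85.3%), RPS26 (82.4%) and RPS9 (81.9%). RPL12, at the base of the stalk, fell into 3 sets of animals separated by gaps of 0.36 and 0.27 on the log2 scale, while the next gap was 0.07 and the median SD within an animal was 0.06. In 15 animals RPL12 stood 0.97 to 0.79 below the median of the other members, in 8 animals 0.43 to 0.33 below, and in animals 10, 48 and 50 between -0.06 and 0.06. The mean levels in the 3 sets were 327 ± 48.2, 432 ± 40.1 and 535 ± 66.03 CPM (SD over animals).

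The entry LOC783641, a protein-coding gene on another chromosome, ran in the opposite order, with 30.1 ± 4.14, 20.9 ± 1.59 and 11.97 ± 1.52 CPM in the 3 sets. Its animal means did not overlap between the sets, which ran from 24.3 to 41.2, from 17.6 to 22.4 and from 10.7 to 13.7 CPM. The sets were drawn from RPL12 itself, and LOC783641 was found by the same search as the entry most opposed to RPL12. The separation of both entries is therefore a description, and LOC783641 is no independent support for the sets. The 15 animals of the lowest set comprised 3 AAC, 6 COMBO and 6 INR steers, the 8 of the middle set 4 AAC, 1 COMBO and 3 INR, and the 3 of the highest set 1 AAC and 2 INR. Thus 6 of the 7 COMBO animals belonged to the lowest set, beside the COMBO values of RPL12 given above for days 0 and 13. The highest set held 3 healthy animals and no BRD animal.

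**Figure D4:**
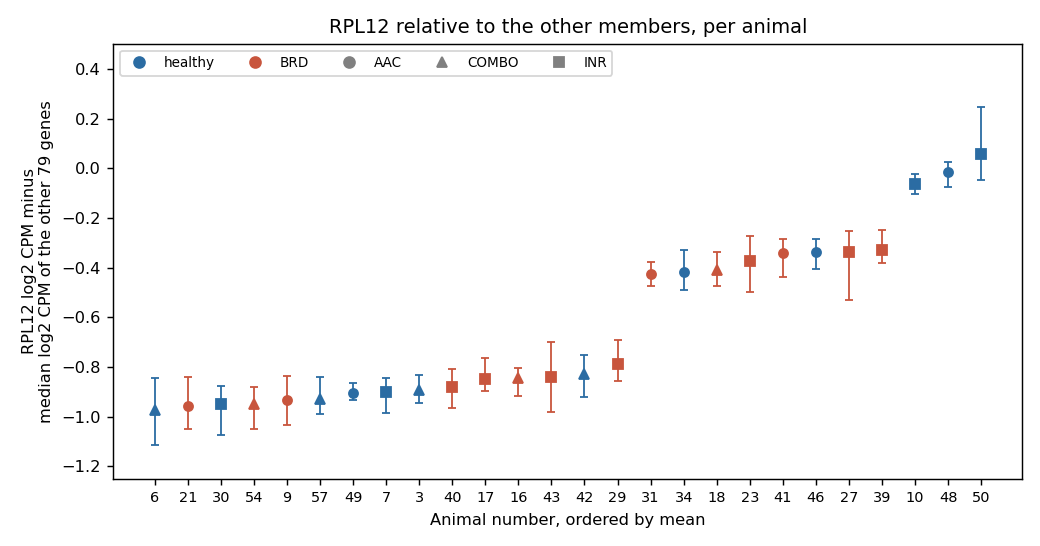
RPL12 log2 CPM minus the median log2 CPM of the other 79 members (vertical axis) for each of the 26 animals, ordered by their mean. Points are means over 5 libraries (4 for animal 48), bars run from the lowest to the highest library, colour gives the disease label and symbol the supplement. The animals form 3 steps of 15, 8 and 3.

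RPS26, RPS23 and RPS9 also kept their level relative to the other members within an animal. RPS26, a small subunit protein at the exit of the message, stood between -0.62 and -0.49 in animals 18, 39, 42 and 17 and between -0.30 and -0.11 in the other 22. RPS23, which faces the decoding centre, stood between -0.86 and -0.81 in animals 3, 41, 40 and 57 and reached -0.38 in animal 50. RPS9 ran from -0.11 in animal 29 to 0.28 in animal 17 without a wide gap. These values are means over the libraries of an animal and describe animals, not conditions.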

How the data were processed

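Whole blood was collected in Tempus tubes from 26 steers at 5 time points, and stranded mRNA libraries were sequenced on an Illumina instrument. The deposited values are gene-level counts of all libraries in 1 table. Per the study's methods, the authors used HISAT2 to place trimmed reads on ARS-UCD1.3, the cattle reference, built transcripts in StringTie, appended reference names to ambiguous assembled genes, and derived the counts with the prepDE script from the coverage of each transcript. The counts of an entry therefore depend on how assembled transcripts were assigned to names. The submitters' processing notes name Trimmomatic 0.39, HISAT2 2.1.1, StringTie 2.2.0 and FastQC 0.11.9, and the HISAT2 version differs from that in the methods.

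Counts were analysed with edgeR 4.0.16 in R 4.3.3. Genes were filtered with filterByExpr, scaled with TMM (factors 0.906 to 1.09) and fitted with the quasi-likelihood method, with a common dispersion estimated on 3000 genes and Benjamini-Hochberg adjustment over all 18937 genes tested. Day changes and their difference between labels were fitted with animal as a block. Differences between labels and supplements were fitted over 30 means of label, supplement and day, which do not model that an animal was sampled repeatedly, so within a day n is the number of animals. An FDR below 0.10 was called. CPM values use TMM library sizes, log2 CPM a prior count of 2. The same animal number marks the same animal on each day, and 255 of 256 same-animal pairs of libraries had a correlation of deviations above 0.1, so animals were paired. The biological coefficient of variation was 28.2% with the block and 38.3% without it.

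The members and gene lists were chosen with earlier results of these data known. Genes named in the text were the 5 highest and 5 lowest members, the 3 largest changes each way among called members, the 3 smallest p-values per supplement test, paralogs with a trailing L and their parents, the stalk genes, RPSA, RPS27A, the 3 most and 3 least variable members and components outside the rule. Genes described for their partner entries or animal sets were chosen after their values were seen. Not every gene that the rule selects is printed, and some results are not reported here. Leaving out each animal in turn covered all 26 animals for the 30 means and 8 drawn animals for the block fit. DESeq2 1.42.0 and limma 3.58.1 served as alternatives. The scripts were tested on simulated data.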

Additional observations from a re-analysis of the deposited data

Results flagged for a closer look

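In 3 of 24 groups of 4 or 7 animals, 1 library lay apart from the others of its label, supplement and day in the mean log2 CPM of the members by Dixon's criterion. Chance sets apart about 1 in 20 groups. BRD INR animal 40 stood at 9.72 on day 28, where the other 6 animals ran from 8.50 to 8.96, and at 9.95 on day 60, where the others ran from 8.48 to 8.93. The members took 7.97% and 9.12% of the counts in these libraries. BRD AAC animal 21 stood at 8.57 on day 60, where the other 3 animals ran from 8.86 to 8.88, with a share of 3.89%.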

How the results depend on the processing

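No alternative turned the sign of a called change in a gene named above. No member was called for disease, supplement or the difference between labels in the change from day 0, in any alternative that tested them. The difference between supplements in the change from day 0 was not tested. The day counts of members called (31, 3, 2 and 11 on days 13, 28, 45 and 60) depended on the setting, and the cause was not tested. For most of the settings that follow, the share of all genes called is not printed. Their counts are therefore not read as a change particular to the members. At an FDR below 0.05 they were 19 on day 13 and 6 on day 60. RLE size factors, a mean CPM of at least 1 and DESeq2 each gave 5 on day 28 and 4 on day 45. DESeq2 called 36.8% and 31.7% of all genes on those days. With limma voom, 50 were called on day 13. Without the replicate block, that is without pairing by animal, 0, 1 and 3 were called on days 28, 45 and 60. Healthy animals alone gave 16, 12, 0 and 2, and BRD animals alone 11, 0, 0 and 0, with fewer samples in each. Without the day 60 library of animal 40, 4 were called on day 45 and 18 on day 60. In alternatives chosen after seeing the data, 20 were called on day 13 and 4 on day 45 without the day 13 library of animal 50, and 45, 4 and 32 on days 28, 45 and 60 without the day 28 and day 60 libraries of animals 40 and 54. Leaving out 1 of 8 drawn animals gave 17 to 29, 2 to 4, 2 to 2 and 7 to 11 on the 4 days. The block fit without each of the other 18 animals was not run. Leaving out each of 26 animals moved the mean change of the module from -0.22 to -0.14 on day 13, -0.13 to -0.05 on day 28, -0.04 to 0.0027 on day 45 and -0.11 to -0.03 on day 60. The labels' replicates are single animals, and 1 library per animal and day limits the precision.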
